A study of Mus musculus with 22 samples.

Results

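The comparison of macrophages given β-hydroxy-β-methylbutyrate (HMB) with untreated macrophages was made array by array, each HMB array being set against the untreated (Ctrl) array with the same replicate number. All 6 HMB and all 6 Ctrl arrays of the series entered it, 12 of 22 arrays. Both groups held M0 macrophages, meaning cells not polarized with lipopolysaccharide (LPS), grown from bone marrow of C57BL/6 mice (written "C57/bl6" in the labels) in medium conditioned by L929 cells, a fibroblast line that secretes the macrophage growth factor CSF1. HMB cells received 1 mM HMB for 48 h, Ctrl cells received no HMB, and no cell in either group received LPS. The remaining 10 arrays held cells with LPS, without or with HMB. The comparison asks what HMB alone did to macrophages before any polarizing stimulus.

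HMB is a product of leucine breakdown that is taken as a supplement to preserve muscle. Bone marrow-derived macrophages are a mixed response system in which inflammatory (M1-like), repair-associated (M2-like), interferon, metabolic and cell cycle programs can shift separately. One such program is the amino acid response, in which shortage of amino acids or other stress raises translation of the transcription factor ATF4, which then induces amino acid transporters, serine and asparagine synthesis enzymes and aminoacyl-tRNA synthetases.

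Values were log2 signals of probe sets, so a difference of 1 is a change by a factor of 2. After control probe sets were left out, 22206 probe sets were tested. Macrophage markers were high on every array, with a mean level of 8 measured genes between 15.2 and 16.4. Defining markers of neutrophil precursors (0 of 5), dendritic cells (0 of 4) and lymphocytes (0 of 3) did not exceed the arrays' median level, whereas 3 of 4 fibroblast, 2 of 3 erythroid and megakaryocyte, and 1 of 3 mast cell markers did. The mean level of the fibroblast markers lay between 5.51 and 7.50 without HMB and between 5.73 and 7.98 with it. The gap between the means of positive and negative control probe sets was 3.96 in Ctrl 1 and 3.78 in HMB 1, and lay between 4.43 and 5.26 on the other 10 arrays. Within pairs this gap differed by -0.17 ± 0.33 (SD, n = 6, exact sign-flip permutation p = 0.25, two-sided, the smallest possible p being 0.0312). With no reads to count, precision depended on how many arrays there were.

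Arrays numbered 5 and 6 stood apart from those numbered 1 to 4. Deviations from the group mean of Ctrl 5 and Ctrl 6 correlated across probe sets with those of HMB 5 and HMB 6 at r = 0.605 to 0.623, and with those of HMB 1 to HMB 4 at -0.486 to -0.123. Cd5l, a secreted inhibitor of macrophage apoptosis, illustrates the gap, at 14.79 to 15.40 in Ctrl 1 to 4 against 10.84 and 11.02 in Ctrl 5 and 6. Values for the 4 lower and the 2 higher numbers are therefore given side by side. The labels tie the numbers to no animal, culture or day, so the tests below reflect only variation among these arrays, which could be technical.

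The same-numbered differences had little in common from one number to the next. Across the 22206 probe sets, the differences of numbers 5 and 6 correlated at r = 0.316, and the other 14 combinations of 2 numbers gave r from -0.1 to 0.126, as a description across probe sets that are not independent replicates. Each pair held 626 to 1673 probe sets higher by over 1 and 926 to 1854 lower by over 1. Over all 6 pairs, limma with the replicate number as a block called 0 of 22206 probe sets (0%, Benjamini-Hochberg adjusted p under 0.05). At an unadjusted p under 0.05 it gave 1190 probe sets (5.36%), of which 595 were higher (2.68%) and 595 lower (2.68%) with HMB.

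Consistency over the 6 differences was used to rank genes. All 6 differences were above 0 for 321 probe sets (1.45%) and below 0 for 404 (1.82%). Differences of at least 0.25 in all 6 pairs were found for 45 probe sets above 0 (0.203%) and 29 below 0 (0.131%). The genes named next are those whose smallest difference lay farthest from 0, and since these differences chose them, their values describe the ranking and test nothing.

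Tent5c, a noncanonical poly(A) polymerase, had the most consistent higher values. Its level was 7.16, 7.26, 7.14, 6.02, 9.43 and 9.03 in Ctrl 1 to 6, and 8.16, 7.87, 7.73, 7.02, 10.59 and 10.31 in HMB 1 to 6. Each HMB array exceeded its own Ctrl array by 0.60 to 1.29, although the groups overlapped. The mean difference was 0.94 ± 0.16 (SE, n = 6 pairs, limma adjusted p = 0.907). Btg2, an antiproliferative gene induced by p53, spanned 9.26 to 11.20 among Ctrl arrays and 10.35 to 11.71 among HMB arrays, with differences of 0.44 to 1.43 and a mean of 0.81 ± 0.18. Dnmt3a, a de novo DNA methyltransferase, was between 10.19 and 10.70 in Ctrl and between 10.89 and 11.62 in HMB. Its groups did not overlap, with a mean difference of 0.63 ± 0.16.

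Other genes with 6 higher values were of several kinds. Mmp8, a collagenase of neutrophils, was higher by 0.38 to 1.54 in each pair and by 0.85 ± 0.19 on average. The kinase gene Dyrk3 was higher by 0.38 to 0.90, and Atp5md, a small subunit of the mitochondrial ATP synthase, by 0.33 to 0.55. Mamdc2, the arginine methyltransferase Prmt9 and Dock6 joined Dnmt3a as named genes without overlap between all 6 HMB and all 6 Ctrl arrays. Such separation was seen for 13 probe sets above (0.0585%) and 11 below (0.0495%). It was very narrow for Mamdc2, at 7.88536 in Ctrl 3 against 7.88561 in HMB 5. For Prmt9 it was also narrow, at 11.35 in Ctrl 1 against 11.37 in HMB 3. Fam209, Frmd4a and Irak1bp1 completed the 12, and Irak1bp1 owed much of its mean of 0.50 to number 3, at 1.23 against 0.30 to 0.41 in the others.

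Among genes with 6 lower values, Suox, the sulfite oxidase that completes breakdown of sulfur amino acids, ranked highest. It was at 7.26, 8.65, 8.41, 8.32, 8.34 and 8.21 in Ctrl 1 to 6 and at 6.57, 8.17, 7.97, 7.71, 7.39 and 7.60 in HMB 1 to 6. Differences of -0.94 to -0.44 averaged -0.63 ± 0.15 (SE, limma adjusted p = 0.907), and the groups overlapped through the low Ctrl 1. Pclaf, a PCNA-binding factor of DNA replication, spanned 7.86 to 12.99 among Ctrl arrays and 6.52 to 12.32 among HMB arrays, with differences of -1.34 to -0.37. The shift had one direction in all pairs, though not one size, on a gene whose level varied far more between numbers than within them.

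The other genes of the lower set were ranked by the same rule. Bysl, needed for assembly of the small ribosomal subunit, differed by -0.77 to -0.23, and Eif2b5, the catalytic subunit of the translation factor eIF2B, by -0.85 to -0.23. Dsn1, a kinetochore component, differed by -1.17 to -0.26. Cmpk2, a mitochondrial nucleotide kinase induced by interferon, was at -1.44 in number 1 and between -0.58 and -0.25 in the others. Vmac, Rnf113a1, Cyp20a1, the sorting nexin Snx2, the kinase gene Map3k15 and 1700029P11Rik completed the 12, and only 1700029P11Rik had no overlap between the groups of 6. Map3k15 stood at -1.89 in number 5 and between -0.31 and -0.21 elsewhere, so its mean of -0.52 ± 0.24 rested largely on 1 pair.

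**Figure D1:**
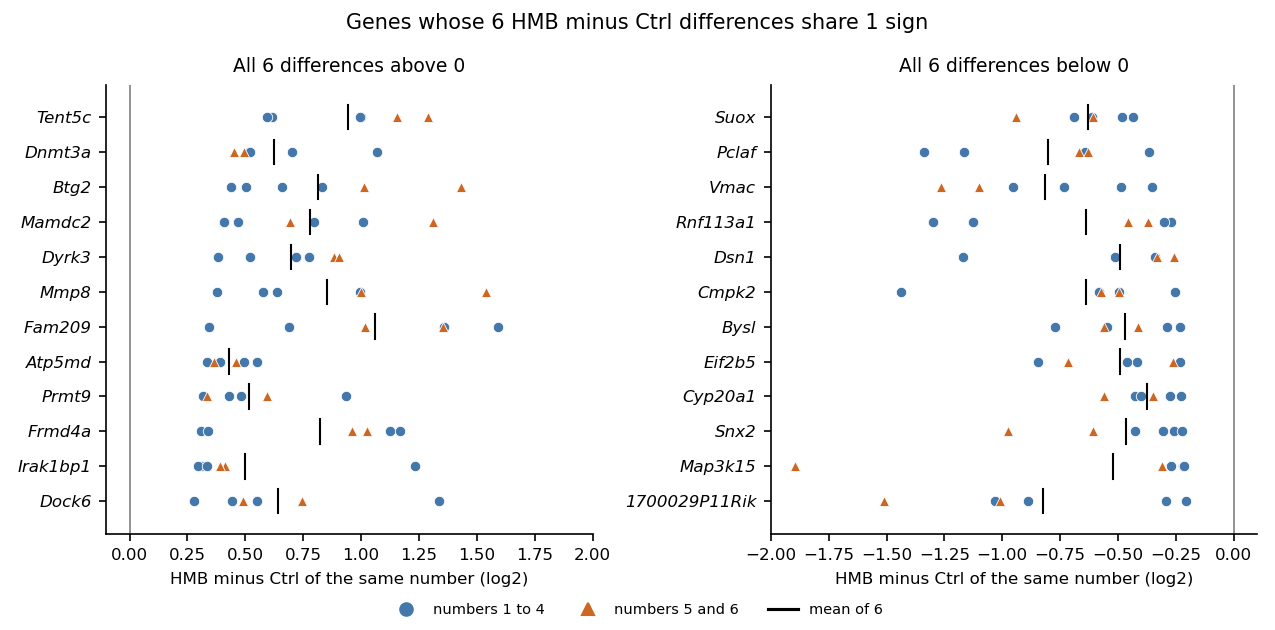
Differences in log2 signal between same-numbered HMB and Ctrl arrays (x axis) for the 12 genes with the most consistent higher values (left) and the 12 with the most consistent lower values (right), with circles for numbers 1 to 4, triangles for numbers 5 and 6 and a bar at the mean of 6. Tent5c is higher by 0.60 to 1.29 in every pair, while single pairs lie far out for Irak1bp1 (1.23), Cmpk2 (-1.44) and Map3k15 (-1.89).

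Gene lists were described by how many members had 6 differences of one sign, beside the 1.45% and 1.82% over all probe sets, and by their median difference, which over all probe sets was -0.01 in numbers 1 to 4 and -0.03 in numbers 5 and 6. None of the 31 lists held a gene called over the 6 pairs. Type I interferon-stimulated genes had 0 of 31 members higher and 5 of 31 lower in all pairs, namely Ifit3, Ifit3b, Cmpk2, Xaf1 and Parp14. Ifit3b, of the family that restrains viral translation, differed by -2.22, -0.11, -0.18, -0.15, -1.44 and -0.86 in numbers 1 to 6. The list's medians by number were -0.75, 0.00, 0.02, -0.13, -0.53 and -0.41, so its lower level lay in numbers 1, 5 and 6.

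Cell cycle lists also leaned lower. Mitosis and G2/M genes had 5 of 35 members lower in all 6 pairs (Cdk1, Aurka, Aurkb, Kif2c and Nusap1) and none higher, with a median below 0 in every number, from -0.52 in number 3 to -0.03 in number 1. Cdk1, the kinase that drives entry into mitosis, differed by -1.35 to -0.18, with a mean of -0.62 ± 0.20. DNA replication genes had 4 of 35 lower in all pairs (Mcm2, Mcm6, Rfc2 and Uhrf1), and 28 of 35 were lower in both numbers 5 and 6, against 33.3% of all probe sets. Their median ran from -0.35 in number 6 to 0.02 in number 2. Of mitosis and G2/M genes, 17 of 35 were lower in both numbers 5 and 6. Some genes had one sign through differences near 0, the nearest being -0.0091 for Kif2c, -0.0208 for Aurka, -0.0095 for Rfc2 and -0.00902 for Uhrf1. Mki67, the gene of the Ki-67 proliferation antigen, differed by -0.53 to 0.01, with a mean of -0.31 ± 0.16 (limma adjusted p = 0.911).

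Matrix and epithelial-to-mesenchymal transition genes had 4 of 35 members higher in every pair and 0 lower. These were Thbs2, Postn and Ccn2, which encode secreted matrix-associated proteins, and Mmp2, a gelatinase. Ccn2 differed by 0.64, 0.38, 0.30, 0.01, 0.74 and 1.22 in numbers 1 to 6, and Thbs2 by 0.19, 0.47, 0.32, 0.56, 1.28 and 1.28. The median of the list was above 0 in every number, from 0.07 in number 4 to 0.77 in number 6, and 27 of 35 members were higher in both numbers 5 and 6, against 28.7% of all probe sets. Of 22 fibroblast and stromal markers, 1 (Postn, which is on both lists) was higher in every pair, and their median ran from -0.13 in number 4 to 0.63 in number 6. The part of fibroblast RNA in the matrix values was not tested. In bulk RNA, fewer cells of a type and less RNA per cell cannot be told apart.

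Smaller groups had a few members of one sign. Angiogenesis genes had 3 of 24 higher in all pairs, the Notch ligand Jag1 with a mean of 0.72 ± 0.22, Postn and Stc1. Of p53 targets, 3 of 21 were higher in all pairs (Btg2, Ccng1 and Eda2r), and the median ran from 0.02 to 0.34 over the 6 numbers. The mean level of Eda2r, 5.00, was also under that median level. Pfkfb3, which promotes glycolysis, was higher by 0.13 to 0.70 and P4ha2 by 0.20 to 0.93, the only 2 of 28 glycolysis and hypoxia genes with one sign. Zfp36, which destabilizes cytokine mRNAs, was higher by 0.22 to 1.05. Srebf2, the regulator of cholesterol synthesis, differed by -0.44 to -0.20 and was the only 1 of 19 cholesterol synthesis genes with one sign.

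**Figure D2:**
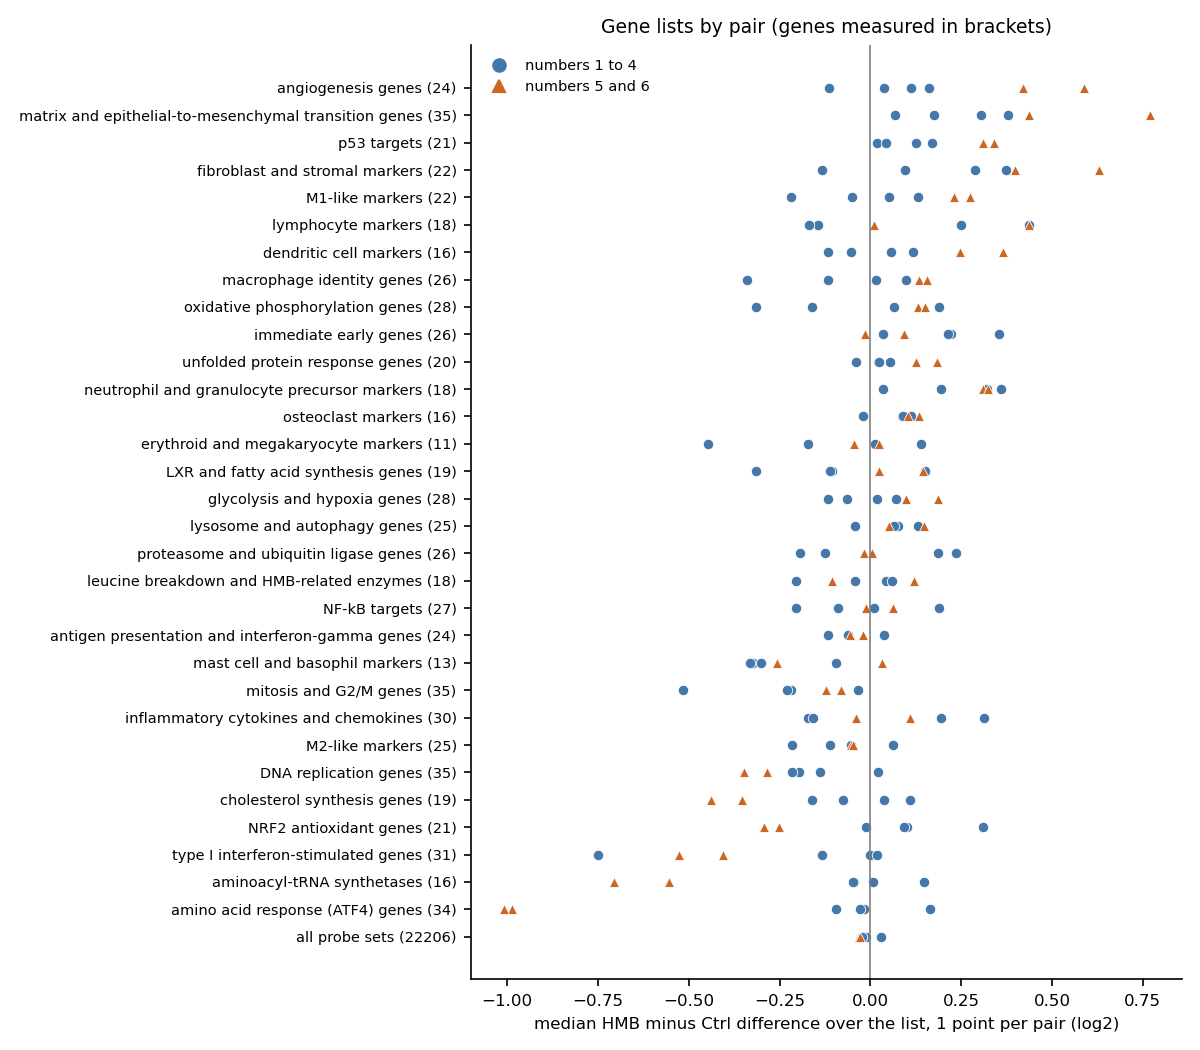
Median HMB minus Ctrl difference over each gene list (x axis, log2), with 1 point per pair (circles for numbers 1 to 4, triangles for numbers 5 and 6) and the number of measured genes in brackets. Matrix genes lie above 0 and mitosis genes below 0 in every pair, and amino acid response genes lie near 0 in numbers 1 to 4 and near -1 in numbers 5 and 6.

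Polarization markers had no common direction. None of the 22 M1-like markers had one sign in all pairs. Of 25 M2-like markers, Arg1, the arginase of M2-like cells, was higher by 0.05 to 0.77 in every pair, at levels of 3.06 to 4.41 on the 12 arrays, under the median level of 5.84 over all probe sets, and the lectin gene Mgl2 differed by -2.48 to -0.09. Nos2, the inducible nitric oxide synthase, lay between 3.82 and 5.75 without HMB and between 3.45 and 5.31 with it, and its differences ran from -1.40 to 0.69. Il6 differed by -1.02 to 1.34, Il1b by -0.81 to 1.55 and Tnf by -0.38 to 0.49, all with both signs. Il6 lay at 2.22 to 3.88, and like Nos2 it was under the median level of 5.84 on all 12 arrays. The signs of these 2 low genes therefore say little. The direction of the means of Nos2, Il6 and Tnf turned when single numbers were left out. Mrc1, the mannose receptor, lay between 12.29 and 13.83 without HMB and between 10.77 and 13.34 with it, and was lower in 5 of 6 pairs, with a mean of -0.89 ± 0.23 (limma adjusted p = 0.907).

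**Figure D3:**
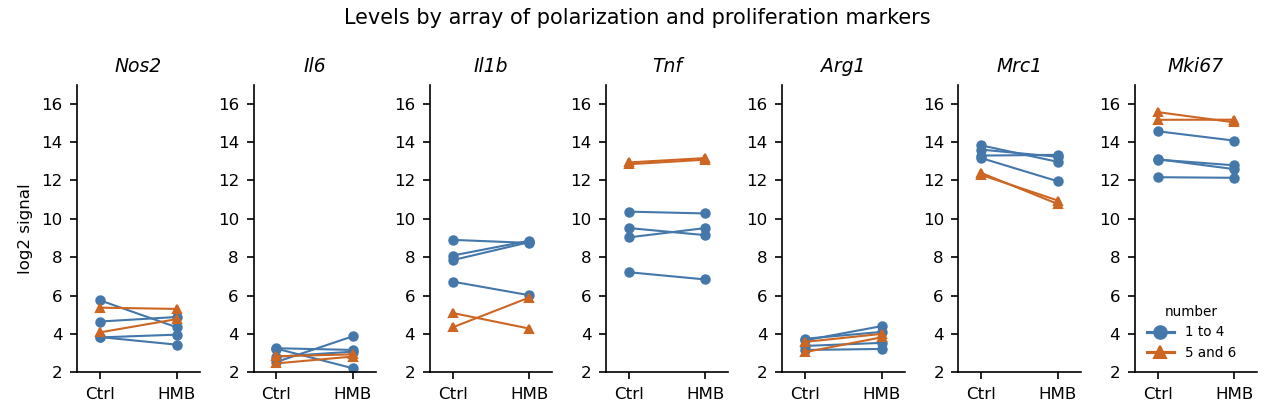
Log2 signal (y axis) of the marker genes Nos2, Il6, Il1b, Tnf, Arg1, Mrc1 and Mki67 in Ctrl and HMB arrays, with lines joining arrays of the same number (circles for numbers 1 to 4, triangles for numbers 5 and 6). Tnf lies at 12.85 to 13.17 in numbers 5 and 6 and at 6.84 to 10.38 in numbers 1 to 4 with little change along the lines, whereas Mrc1 is lower with HMB in 5 of 6 pairs.

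Splitting the pairs by number set gave calls in numbers 5 and 6. With an HMB effect for each set and 1 spread shared by both, limma called 20 probe sets in numbers 5 and 6 (0.0901%), of which 7 were higher (0.0315%) and 13 lower (0.0585%), and 0 in numbers 1 to 4 (0%). At an unadjusted p under 0.05 the counts were 1791 (8.07%) and 1147 (5.17%). These 20 rested on the replicate number as a block, although Ctrl and HMB arrays of numbers 5 and 6 did not deviate together within their set (r = 0.00359). Without it none passed (highest adjusted p = 0.973), and without any 1 of the 6 numbers between 0 and 5 probe sets were called. All 20 kept their direction in each of these fits. This was fixed in advance, since their differences in numbers 5 and 6 both had that direction and alone set the estimate.

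The genes that fell in numbers 5 and 6 included 4 of the amino acid response. Slc7a11, the cystine-glutamate exchanger that supplies cystine for glutathione, was at 9.79, 7.92, 7.85, 7.06, 15.01 and 14.58 in Ctrl 1 to 6. In HMB 1 to 6 it was at 10.95, 8.58, 8.06, 7.57, 11.51 and 10.71. Ctrl 5 and Ctrl 6 were thus far above all other arrays, and HMB 5 and HMB 6 were lower than these but still above the range of Ctrl 1 to 4, while numbers 1 to 4 were each higher with HMB. The difference was -3.68 ± 0.30 in numbers 5 and 6 (SE, n = 2 pairs, limma adjusted p = 0.0145) and 0.64 ± 0.21 in numbers 1 to 4 (n = 4 pairs, limma adjusted p = 0.952).

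Trib3, a pseudokinase that ATF4 induces and that restrains its activity, was at 12.20 and 12.55 in Ctrl 5 and 6 and at 8.71 and 9.08 in HMB 5 and 6, against 9.69 to 10.75 in Ctrl 1 to 4. Chac1, which degrades glutathione, was at 8.29 and 8.78 in Ctrl 5 and 6 and at 6.18 and 6.05 in HMB 5 and 6, against 4.87 to 6.54 in Ctrl 1 to 4. Atf5, a transcription factor of the same stress response, was at 10.88 and 11.20 in Ctrl 5 and 6, within the 9.15 to 10.97 of Ctrl 1 to 4 or just above it, and at 7.62 and 7.54 in HMB 5 and 6, below every other array. The differences of Trib3, Chac1 and Atf5 were -3.48 ± 0.39, -2.42 ± 0.27 and -3.46 ± 0.37 (SE, n = 2 pairs, limma adjusted p = 0.0356 each). In numbers 1 to 4 they were 0.55 ± 0.28, 0.59 ± 0.19 and -0.12 ± 0.26, none of which passed.

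Because amino acid response genes moved together in numbers 5 and 6, promoters were searched for TGATGNAA, the core of the composite site bound by ATF4 with C/EBP proteins, on both strands from 250 bases before to 50 after the start (RefSeq, GRCm38.p6). Of 32851 promoters, 1304 held it (3.97%). So did 9 of the 35 promoters found for 29 amino acid response genes (25.7%) and 4 of 9 of aminoacyl-tRNA synthetase genes (44.4%). Both lists hold genes of the ATF4 response, so a higher share could be foreseen from how they were drawn up. It says nothing about these arrays. The 250 bases before the start of Slc7a11 (chr3:50443614-50443863, minus strand) and Chac1 (chr2:119350992-119351241, plus strand) are shown because both genes fell in numbers 5 and 6 and both hold the motif. Capitals mark the matches.
Slc7a11: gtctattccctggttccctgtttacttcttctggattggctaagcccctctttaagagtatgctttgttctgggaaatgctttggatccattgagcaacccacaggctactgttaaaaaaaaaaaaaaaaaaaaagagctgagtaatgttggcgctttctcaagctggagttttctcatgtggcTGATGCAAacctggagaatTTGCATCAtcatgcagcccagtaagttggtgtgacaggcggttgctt
Chac1: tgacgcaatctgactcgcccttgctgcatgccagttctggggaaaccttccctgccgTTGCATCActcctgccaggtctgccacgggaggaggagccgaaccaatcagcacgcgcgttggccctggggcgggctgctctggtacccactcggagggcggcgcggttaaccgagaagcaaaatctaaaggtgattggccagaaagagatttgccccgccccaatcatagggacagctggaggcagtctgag
In Slc7a11 the matches began 66 bases before the start on the gene's strand and 47 bases before it on the opposite strand. Chac1 held 1, on the opposite strand 193 bases before the start, and Trib3 held 1 just after its start. Atf5 held none in this window. A match describes the letters of the window and is no measurement of binding.

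Amino acid response genes as a list leaned lower in numbers 5 and 6. Of 34 measured, the 4 called ones included, 30 were lower in both numbers, against 33.3% of all probe sets, with a median difference of -1.09, and in numbers 1 to 4 the median was -0.03. None of the other members passed the test. The list was drawn up with earlier results of these data known, and its members are not independent, so the count is a description only. The asparagine synthetase gene Asns differed by -1.62 and -2.02, the glycine transporter gene Slc6a9 by -3.33 and -3.26, and the neutral amino acid transporter gene Slc1a4 by -2.76 and -2.86 in numbers 5 and 6. Atf4 itself differed by -0.67 and -0.60, and Slc7a5, the leucine transporter, by -1.41 and -1.35. Ddit4, an inhibitor of mTORC1 signalling, went the other way, at 1.38 and 2.47, as did the cationic amino acid transporter gene Slc7a3, at 2.53 and 0.93. Slc7a1, another transporter of cationic amino acids, was the only 1 of the 34 lower in all 6 pairs, with differences of -1.43 to -0.04.

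Genes of neighbouring pathways were set beside these. Over all probe sets, 33.3% were lower and 28.7% higher in both numbers 5 and 6. These lists too were chosen with earlier results of these data known, so their counts are a description only. Aminoacyl-tRNA synthetase genes were lower in both numbers 5 and 6 for 13 of 16, with a median of -0.68, and stood at a median of -0.07 in numbers 1 to 4. Eprs, which charges glutamate and proline tRNAs, had the lowest values of the list, -1.05 and -0.96, which did not pass the test. NRF2 antioxidant genes, which include Slc7a11, were lower in both numbers for 13 of 21, with a median of -0.39. Cholesterol synthesis genes were lower in both for 14 of 19, with a median of -0.38. Unfolded protein response genes, another stress program that can feed ATF4, were higher in both for 11 of 20 and lower in both for 5 of 20, with a median of 0.13.

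The other 9 probe sets that fell in numbers 5 and 6 included receptors and enzymes. Clec4n, which encodes the fungal receptor dectin-2, was at 15.47 and 15.48 in Ctrl 5 and 6, above the 11.17 to 12.28 of Ctrl 1 to 4, and at 12.61 and 12.37 in HMB 5 and 6, a difference of -2.99 ± 0.26. Ptger2, a receptor for prostaglandin E2, was at 12.19 and 12.04 in Ctrl 5 and 6 and at 9.17 and 9.19 in HMB 5 and 6, below all other arrays, a difference of -2.94 ± 0.26. Cox6a2, the heart and muscle form of a cytochrome c oxidase subunit, was at 10.12 and 10.50 in Ctrl 5 and 6 and at 6.06 and 5.76 in HMB 5 and 6, a difference of -4.40 ± 0.36. For Ptger2 and Cox6a2 the Ctrl arrays of both number sets overlapped, so HMB 5 and HMB 6 were the arrays that stood apart. The prostacyclin receptor gene Ptgir (-2.72), the collagenase gene Mmp13 (-2.61), the proton pump subunit gene Atp6v0d2 (-2.58), Gm14461 (-2.65) and 2 probe sets without a gene symbol also fell.

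The other 7 called probe sets rose in numbers 5 and 6. Npy, the peptide neuropeptide Y, was at 11.82 and 12.56 in Ctrl 5 and 6 and at 15.24 and 15.34 in HMB 5 and 6, against 13.32 to 14.60 in Ctrl 1 to 4, a difference of 3.10 ± 0.33 (limma adjusted p = 0.0356). Acp5, the tartrate-resistant acid phosphatase, rose by 2.30 ± 0.26, and Igf2r, the mannose 6-phosphate receptor that carries lysosomal enzymes, by 2.21 ± 0.25. Cd5l rose from 10.84 and 11.02 to 13.09 and 12.91, still under the 14.79 to 15.40 of Ctrl 1 to 4. The actin-binding gene Ablim1 rose by 3.56 ± 0.44, Sez6l2 by 2.43 ± 0.29 and Stard13 by 2.13 ± 0.26. For 11 of the 20 called probe sets, both Ctrl 5 and Ctrl 6 lay outside the range of Ctrl 1 to 4, and likewise for 11 the mean of HMB 5 and 6 was nearer than that of Ctrl 5 and 6 to the mean of Ctrl 1 to 4. The matching shares over all probe sets were not counted. Whether these counts are particular to the called probe sets was therefore not tested.

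**Figure D4:**
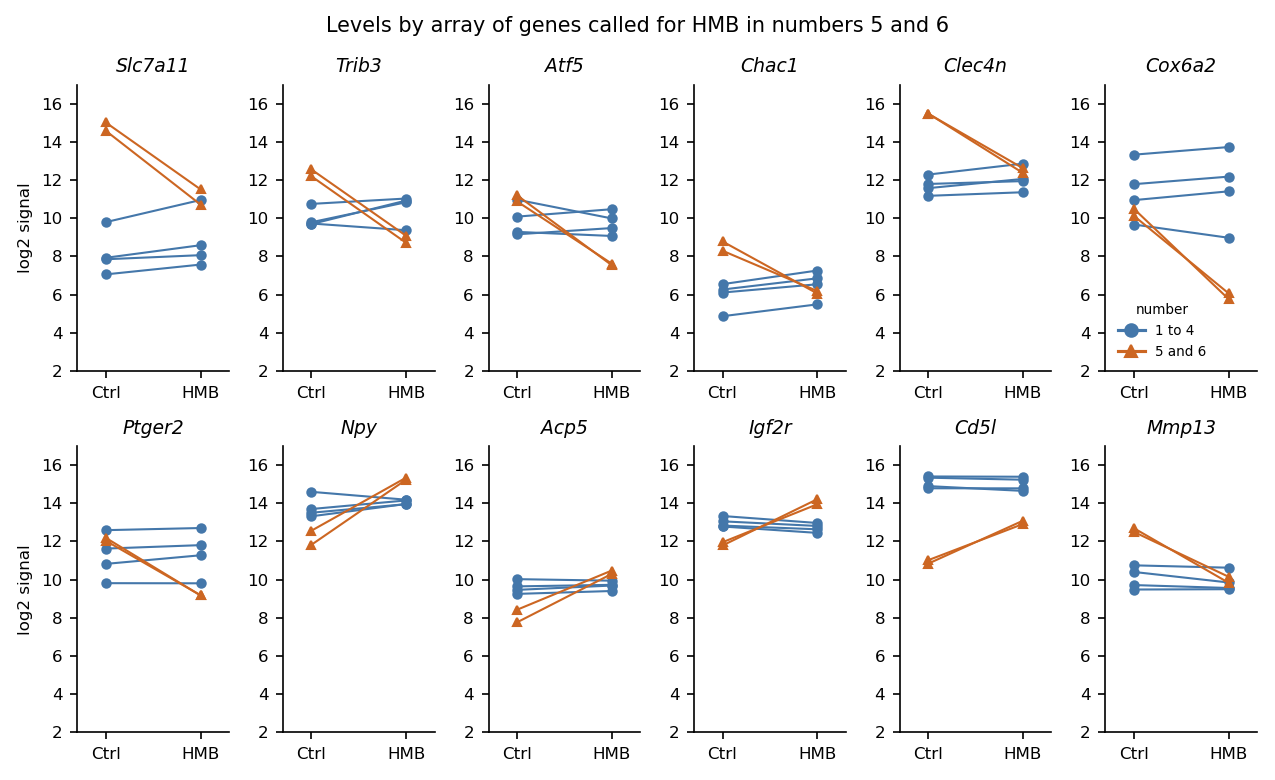
Log2 signal (y axis) in Ctrl and HMB arrays of 12 genes called in numbers 5 and 6, with lines joining arrays of the same number (circles for numbers 1 to 4, triangles for numbers 5 and 6). Slc7a11 drops from 15.01 and 14.58 to 11.51 and 10.71 in numbers 5 and 6 and is higher with HMB by 0.21 to 1.16 in numbers 1 to 4, and Npy climbs to 15.24 and 15.34.

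In numbers 1 to 4, no gene passed the test and the most extreme means were near 1. All 4 differences were above 0 for 1112 probe sets (5.01%) and below 0 for 1274 (5.74%). Ccdc173 had the highest mean among the genes named, 1.20 ± 0.31, and Itgb7, the integrin beta chain of leukocyte homing, the lowest, -1.18 ± 0.34 (limma adjusted p = 0.952 for both). Hspa1a, an inducible heat shock protein gene, averaged 1.11 ± 0.50 through HMB 1 at 13.47 against 10.06 in Ctrl 1, the other 3 pairs differing by at most 0.57. Shc4 was at 6.06, 6.25, 6.34 and 6.31 in Ctrl 1 to 4 and at 4.82, 5.55, 4.89 and 5.34 in HMB 1 to 4, without overlap, and differed by 0.38 ± 0.28 in numbers 5 and 6. These genes were named for their means in numbers 1 to 4, so their values there test nothing. The share of all probe sets without overlap in numbers 1 to 4 was not counted.

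The difference of the HMB effect between the number sets was tested directly. It passed for 4 probe sets (0.018%), all with a lower value in numbers 5 and 6, and 1584 had an unadjusted p under 0.05 (7.13%). These were Slc7a11 (-4.32 ± 0.37), Clec4n (-3.33 ± 0.32), Cox6a2 (-4.54 ± 0.44) and Ptger2 (-3.12 ± 0.31, limma adjusted p = 0.0425 for each of the 4). Chac1, Trib3 and Atf5 did not pass (limma adjusted p = 0.0638, 0.0798 and 0.121), so for them the sets were not shown to differ. None of the 4 passed without the replicate block or after any 1 number was left out.

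**Figure D5:**
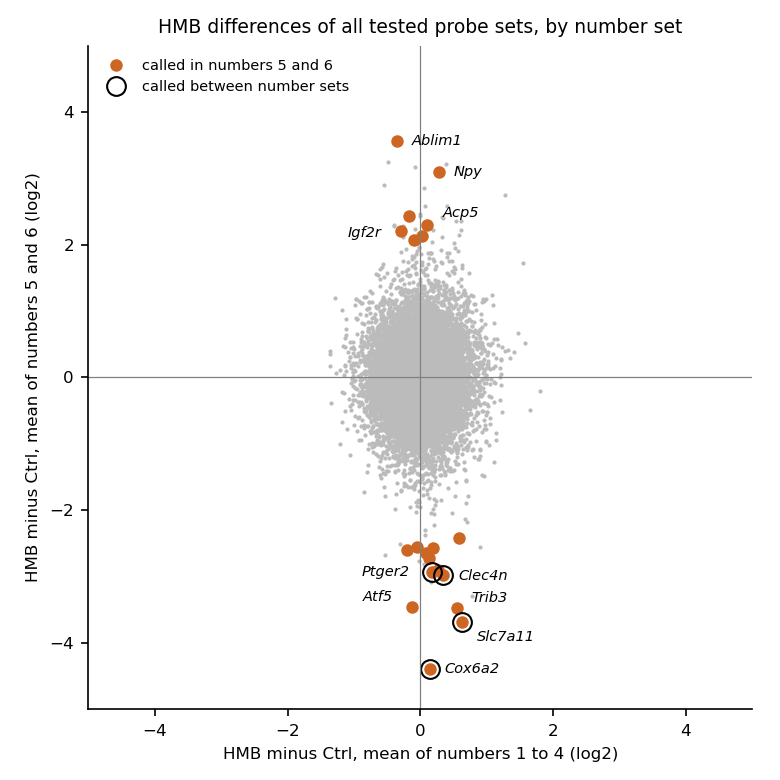
Mean HMB minus Ctrl difference (log2) of each of the 22206 tested probe sets in numbers 1 to 4 (x axis) and in numbers 5 and 6 (y axis), with filled points for the 20 called in numbers 5 and 6 and rings for the 4 called between the number sets. The called probe sets spread along the y axis between -4.40 and 3.56, while on the x axis they stay between -0.34 and 0.64.

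The same genes were read in the arrays with LPS, as HMB+LPS minus LPS (5 arrays each). These arrays share no control with the comparison above, but all carry replicate numbers, 2 to 6, that it also used. Whether they are independent of the 6 differences is not known, and genes are not independent replicates, so the counts are a description. Of the 12 most consistent higher genes, 11 were above 0 there, against 48.7% of all probe sets, with a median of 0.31. Of the 12 lower ones, 9 were below 0, against 51.3%, with a median of -0.21. Of all 321 probe sets with 6 higher values 203 were above 0 (63.2%), and of the 404 with 6 lower values 270 were below 0 (66.8%). Tent5c differed by 1.10 ± 0.90 and Chac1 by -1.47 ± 0.70. Of the 4 genes called between the number sets, Slc7a11 (0.25 ± 1.21) and Clec4n (0.68 ± 0.66) were above 0, against their direction in numbers 5 and 6. Cox6a2 (-1.06 ± 1.22) and Ptger2 (-0.17 ± 0.65) were below 0. Of the genes called in numbers 5 and 6, 5 of 7 higher and 10 of 13 lower kept their direction. None of these differences passed, since limma called 0 of 22206 probe sets in HMB+LPS minus LPS (0%), with 686 at an unadjusted p under 0.05 (3.09%). That fit used group means without the replicate number. With it as a block, on the 10 arrays with LPS, 0 were called and 579 had an unadjusted p under 0.05. There arrays of the same number correlated positively in numbers 2, 4 and 6 and negatively in 3 and 5 (r = 0.615, -0.515, 0.545, -0.516 and 0.599 for numbers 2 to 6). The spread in the fit of group means was wide for some genes, with an SE of 2.03 for Il6 and 1.85 for Nos2. A lack of calls there therefore says little about HMB.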

How the data were processed

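Total RNA of bone marrow-derived macrophages was hybridized to Clariom S mouse arrays. The authors deposited log2 values, 1 per probe set and array, used here as given. How background and differences between arrays were handled upstream is not given in the sources used here. Of 28846 probe sets, 6640 controls were left out, and 22206 were tested, 19572 of them with 1 gene symbol. For the 55 genes with several probe sets the one with the highest mean was used. limma 3.58.1 in R 4.3.3 was fitted to the 12 arrays with the replicate number as a block, once with 1 HMB effect and once with an effect for each number set (1 to 4, 5 and 6), two-sided, with Benjamini-Hochberg adjustment over all 22206 and a threshold of 0.05. HMB+LPS minus LPS came from group means of all 22 arrays.

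Pairing was checked through deviations from group means, which correlated at 0.627, 0.183, 0.244, 0.307, 0.608 and 0.623 for numbers 1 to 6. Taken from the means of each number set instead, they correlated at 0.507, 0.0118, 0.047 and 0.402 for numbers 1 to 4 and at 0.00359 for numbers 5 and 6, so pairing beyond the number set showed only in numbers 1 and 4.

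Genes were named by rule: the 12 most consistent in each direction at or above the median level (5.84), the extremes of each number set, the smallest p between sets, up to 4 members of each list, and fixed markers. The other genes called in numbers 5 and 6 are also named. Of 773 genes on 31 lists, 707 were matched. The members and lists were chosen with earlier results of these data known. Fits were tested on simulated data. Other normalizations, a filter, a moderated trend, no block, and leaving out numbers were tried. Promoters came from RefSeq (GRCm38.p6).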

Additional observations from a re-analysis of the deposited data

Results flagged for a closer look

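Among 188 sets of 6 values looked at, 16 held 1 value far from the other 5, by the ratio of the gap to the range (above 0.625), where chance gives about 1 in 20. Of the same-numbered differences, Irak1bp1 was at 1.23 in number 3 (0.297 to 0.413 in the others), Map3k15 at -1.89 in number 5 (-0.31 to -0.214) and the matrix gene Postn at 1.15 in number 6 (0.102 to 0.4). Number 1 held 3 such values, for the kinetochore gene Dsn1 (-1.17), the interferon-induced Cmpk2 (-1.44) and the replication helicase gene Mcm6 (-1.4), and also the only median below 0 of the osteoclast markers (-0.0207).

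Of single levels, HMB 1 stood apart for Prmt9 (12.3), Sez6l2 (5.92), the transporter gene Slc1a4 (4.53) and Tmem178 (3.59). Ctrl 1 stood apart for Frmd4a (7.78) and Suox (7.26), and for its separation of positive from negative control probe sets, 3.96 against 4.72 to 5.08 in the other Ctrl arrays. Dock6 was at 6.44 in Ctrl 2 and Ablim1 at 7.27 in Ctrl 4.

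The HMB effect differed between numbers 5 and 6 and numbers 1 to 4 in a test of that difference for Slc7a11 (-4.32), Clec4n (-3.33), Cox6a2 (-4.54) and Ptger2 (-3.12).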

How the results depend on the processing

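Over the 6 pairs the count of calls stayed at 0 under every alternative, including no replicate block (526 at an unadjusted p under 0.05), the number set as a block, all 22 arrays, and the methods' t-test (587 unadjusted and 0 after adjustment). Numbers 1 to 4 also gave 0 throughout. For numbers 5 and 6 (20 calls) the count was 0 with no replicate block, 62 with only the upper part of probe sets by mean level, 161 with a trended and robust prior, and 0 to 5 without 1 replicate number. Fitted to their own 4 arrays, numbers 5 and 6 gave 0 calls (3022 unadjusted), an alternative added after seeing the data. For the difference between number sets (4 calls) the count was 0 with no replicate block, 25 with the level filter, 50 with the trended prior, and 0 without any 1 number. The causes were not tested. The 20 called in numbers 5 and 6 kept their direction in all of these fits of the 12 or 10 arrays. That was fixed by their differences in numbers 5 and 6, which both had that direction, and is no test of the calls. HMB+LPS minus LPS gave 0 calls with and without a replicate block, also added after seeing the data. Quantile normalization (16 and 4 calls) and median centring (24 and 4) gave counts near the main ones.

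The counts of probe sets with all differences above and below 0 were 152 and 241 with the level filter, which tests fewer probe sets, and 508 to 735 and 617 to 912 without 1 number, which asks for 5 differences of one sign. Mean differences turned direction for Nos2 (-0.2955 to 0.1215 without 1 number), Il6 (-0.07698 to 0.3957) and Tnf (-0.07424 to 0.09787). Of the values of single genes, 534 kept their direction and side of the threshold, 146 no longer passed, 5 newly passed and 5 turned. List medians moved by less than the spread over pairs in 273 cases and by more in 5. The mast cell list had no member left under the filter. Leaving out 1 of numbers 5 or 6 leaves that set with 1 pair, assumed to vary like the others. With 12 arrays, and 2 pairs in the set that held the calls, small differences were not detectable, and a missed threshold does not show that values were alike.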
